A study of Mus musculus with 2 samples.

Results

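Beside probes for known genes, the mouse array used here carries probes for stretches of the genome that are given no gene name. Their names hold only a chromosome, a start, an end and a strand. Every non-control probe whose name on the array was such a region was taken, regions on chromosomes X and Y were left out, and probes of the same region and strand were joined. This gave 4429 regions of 37875 distinct transcript or region names on the array. One region was lost because its only spot carried the scanner software's outlier mark, so 4428 regions with 15599 probes were measured, which is 28.0% of the array's 55669 probes. The array's X chromosome regions (178) and 3 regions whose name held no strand were not used.

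RNA transcribed from DNA between annotated genes includes long intergenic noncoding RNAs, unannotated ends of neighbouring genes, antisense transcripts and transcripts of genes not yet named when an array was designed. Many long noncoding RNAs are spliced and polyadenylated like messenger RNAs, are present at low levels, and are made in few tissues. The retina, like other neural tissue, expresses many of them, and a few are known to act in the formation of its neurons. A probe read on 1 strand measures only RNA of that strand, so the forward (F) and reverse (R) probes of an interval count different transcripts. The region names come from the array's design, whose build is mm9. No mm9 sequence or annotation was used here, so neither the probes' sequences nor the genes beside a region are given. Whether a region overlaps a known gene was not checked.

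The study compared retinas of wild-type (WT) mice with retinas of mice labelled Mef2d KO, both at postnatal day 14. The protein made from Mef2d binds DNA and controls transcription in neurons and muscle. The sources used here do not give the strain, the allele, the sex or the number of animals per array. Total RNA was amplified, labelled with the dye Cy3 and hybridised to 1 one-colour Agilent array per group, so there are 2 arrays and no replicates, and p-values cannot be given.

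Both arrays lay on the same slide and shared a scan time. All 28 markers of retinal neurons and Müller glia that were looked up were well above background on both arrays. The targeted gene, Mef2d, was not lower where it should be lost: its probes on the array labelled Mef2d KO differed from WT by 0.43 and 0.14 on the log2 scale. The sources used here do not say whether these probes lie in the deleted stretch, so they check nothing by themselves. The X-linked transcript Xist was not well above background on the WT array, while its probes read -0.071 and -1.04 on the other array. The Y-linked Ddx3y (1.14 in WT and 0.68 on the other array) and Eif2s3y (2.66 and 2.30) were well above background on both. Of 6 lens markers 5 were read on both arrays. The median difference over all 6 was -2.68, with a range from -4.09 to 0.30. The list's summed log2 level was 6.70 in WT and 4.53 on the array labelled Mef2d KO. The median was 0.54 over 3 microglia markers and -0.53 over 5 cone markers. The cone markers were unequal, with differences from -5.36 to -0.13. In bulk tissue, fewer cells of a type and less RNA per cell cannot be told apart. The part of these tissue differences in the regions' values was not tested.

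Throughout, a level is log2 of the scanner software's processed signal minus the 75th percentile of that signal on the same array, so 0 is the level of the probe at that percentile. A difference is the level on the array labelled Mef2d KO minus the level on the WT array. An error written with ± is the scanner software's own error for a difference of 1 spot and leaves out all variation between animals. A region was read on an array when the scanner software marked a probe of it as well above background, and its value is that of its brightest probe read on both arrays.

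The census of the regions is broad. They fall on 3386 intervals, of which 1042 were probed on both strands, 1188 on the forward strand only and 1156 on the reverse strand only. Their median length was 10.7 kb, with quartiles of 1.80 and 25.9 kb, and the extremes were 0.062 and 7128.5 kb. A region had between 1 and 10 probes with a median of 3, and 659 regions rested on a single probe. Regions are not independent of each other, since 2033 of them (45.9%) overlapped another region on the same strand.

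Most regions gave a readable signal. Of the 4428 regions, 3457 (78.1%) were read on both arrays, against 23568 of 32394 other transcripts (72.8%). A further 403 regions (9.10%) were read on the WT array only and 32 (0.723%) on the array labelled Mef2d KO only. Among other transcripts the corresponding numbers were 1946 (6.01%) and 243. In 20 regions the arrays read different probes, and 516 regions (11.7%) were read on neither. The share of readable regions depended on how many probes a region had, from 58.4% of those with 1 probe to 96.6% of those with 6 to 10. Probe by probe the order was the other way: 64.8% of region probes were read on the WT array, against 79.2% of other probes.

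The regions were dim. Over the 3457 regions read on both arrays, the median level was -2.74 in WT and -2.97 in the sample labelled Mef2d KO. Other transcripts had medians of -0.44 and -0.48. Only 513 regions had a mean level above 0, and 171 had one above 2.

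A small number of regions held very bright probes. The highest, chr19:5801802-5802597 on the reverse strand, stood at 8.36 in WT and 8.33 on the other array. The next, chr17:17481706-17482457 on the reverse strand, stood at 7.69 and 7.57. The region chr14:78924115-78938125 on the forward strand read 7.13 and 6.92, and chr6:83368261-83407280 on the forward strand read 7.11 and 6.89. The fifth, chr12:73838608-73862621 on the reverse strand, read 6.80 and 6.61. The first 2 were bright by all 3 of their probes, the dimmest of which read 6.40 and 6.46 in WT. The other 3 were bright by 1 probe, and their next brightest probe read -3.31, 1.04 and -2.25 in WT. Each of these 5 differences, -0.031, -0.13, -0.22, -0.22 and -0.19, was close to or within the scanner error of 0.20.

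Few regions differed by 2-fold, and nearly all that did were lower on the array labelled Mef2d KO. Of 3457 regions, 124 (3.59%) were lower by 2-fold or more and 10 (0.289%) were higher by as much, while 3323 lay within 2-fold. Over regions and other transcripts together the background was 2.17% lower and 0.518% higher, and over other transcripts alone it was 1.96% and 0.552%. Only 2 regions were at least 4-fold lower and none was 4-fold higher. The share of lower regions among those past 2-fold was 92.5%. It became 80.2% with each array scaled to its median (69 lower and 17 higher). After quantile normalization it was 69.5% (41 and 18), and after cyclic loess 72.7% (40 and 15). Scaling to the 75th percentile of probes read on both arrays gave 93.6% (132 and 9). Normexp, a background model described below, gave 92.3% (12 and 1). Other transcripts had 463 lower and 130 higher in the main setting, and 485 and 126 with the percentile of readable probes. Their counts were 269 and 197 with median scaling and 228 and 221 after quantile normalization. Loess gave them 220 and 215, and normexp 120 and 80.

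**Figure D1:**
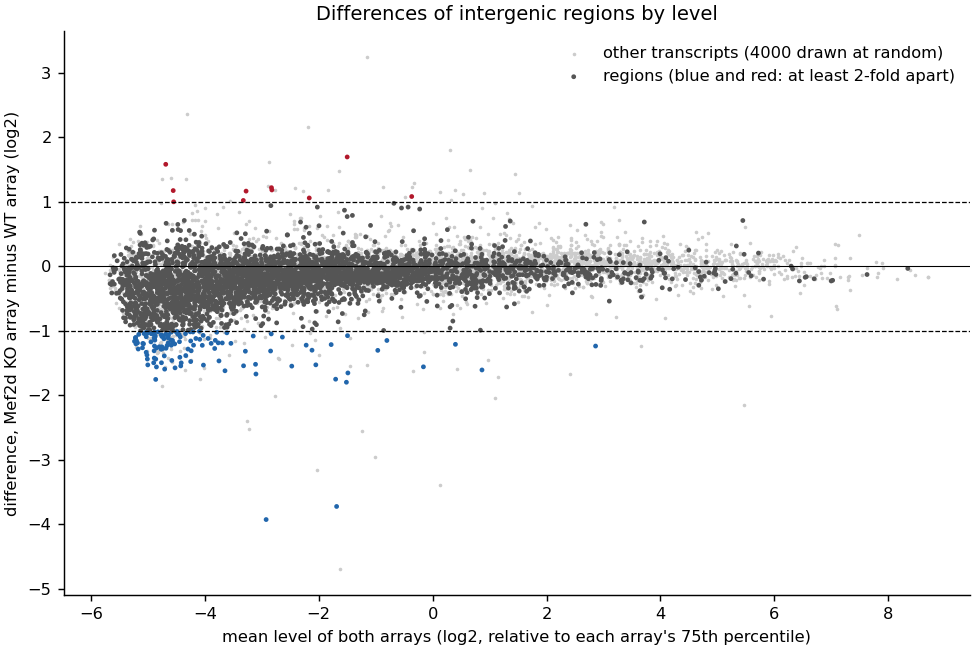
Difference of the array labelled Mef2d KO from WT (log2, vertical axis) against the mean level of both arrays (log2 relative to each array's 75th percentile, horizontal axis), with 1 point per transcript. Regions are drawn over 4000 other transcripts taken at random, with the 124 regions at least 2-fold lower in blue and the 10 at least 2-fold higher in red; the cloud widens and bends downward at low levels, where most of the blue points lie.

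Most of the lower regions were dim. The 124 stood at a median of -3.96 (WT) and -5.16 (labelled Mef2d KO), whereas regions within 2-fold had medians of -2.68 and -2.84. At mean levels of -3 or less, 104 of 1638 regions (6.35%) were at least 2-fold lower, beside 5.25% of other transcripts. Above that level 20 of 1819 regions (1.1%) were lower, beside 0.857% of other transcripts. In both ranges the regions' share is thus near that of other transcripts. Higher regions numbered 5 in each range, which is 0.305% and 0.275% of the regions, beside 0.606% and 0.533% of other transcripts.

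Control RNA spiked into both labelling reactions also read lower at low levels. Each of 10 such RNAs has 35 spots. At a WT level of -4.20 the control's median difference was -0.74, at -2.84 it was -0.11 and at -1.80 it was -0.031. At -5.38 it was -1.81, and there 74.3% of its spots were read on the WT array and 0% on the other. The 5 brightest controls differed by between -0.016 and 0.022. The regions' median difference was -0.36 at mean levels from -5 to -4 and -0.40 at or below -5, less far down than these dim controls. From -3 to -2 it was -0.16 and from -2 to -1 it was -0.11, lower than the controls at -2.84 and -1.80. The comparison is rough: regions had to be read on both arrays and are placed by mean level, while the controls are placed by WT level without that filter. The part of whatever lowered the controls in the regions' values was not tested.

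The regions as a class were shifted slightly downward. Their median difference was -0.17, against -0.032 for other transcripts, and 2674 of 3457 (77.4%) were negative. The sign of this median depends on the scaling: scaling to the array median moves every value by 0.18 and turned the regions' median to 0.0050, and that of other transcripts to 0.15. The distance between regions and other transcripts was -0.14 under both scalings, -0.067 after quantile normalization and -0.058 after cyclic loess. It was -0.043 with normexp, a model-based subtraction of local background from median signals. That setting adds an offset of 50 and is followed by quantile normalization.

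Among bright regions the distance was about the same in each normalization tried. Above a mean level of 0, where the spiked controls stood near 0, the median was -0.085 over 513 regions and 0.023 over 10707 other transcripts. Of these regions 69.8% were negative, beside 43.0% of the other transcripts. The distance was -0.11 with the 75th percentile, the array median, quantile normalization, cyclic loess and normexp alike. These are not separate checks: the first 2 scalings differ by a constant, which cannot change a distance, and normexp includes quantile normalization. It is small beside the scanner error of 1 probe, whose median was 0.20 above a level of -3, and 2 arrays give no measure of how far it varies between animals.

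The regions were also set beside transcripts classed by their RefSeq accession. In the bin of levels from 0 to 2 the median difference was 0.028 for messenger RNAs, -0.018 for noncoding RNAs and -0.081 for the regions. From -2 to -1 the medians were -0.026, -0.057 and -0.11. At or below -5 they were -0.28, -0.32 and -0.40. The regions were lowest in all 8 bins of level. The noncoding RNAs lay between them and the messenger RNAs in 7 bins, but not from -5 to -4, where the medians were -0.30 for messenger RNAs, -0.27 for noncoding RNAs and -0.36 for the regions. All region probes belong to one series of the array maker's probe names, which only 57 of 38357 other probes share, and the part of probe design in this order was not tested.

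**Figure D2:**
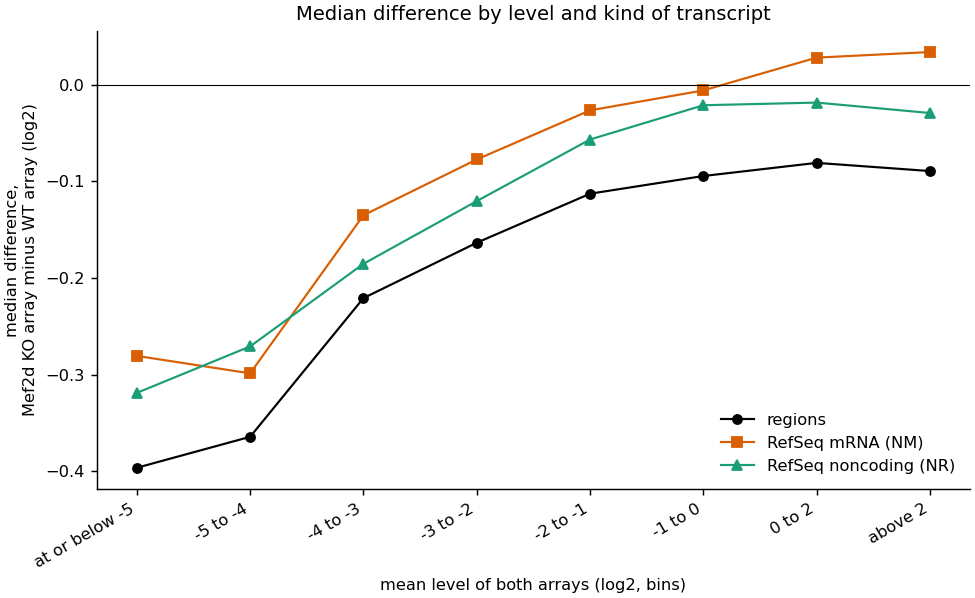
Median difference of the array labelled Mef2d KO from WT (log2, vertical axis) in bins of mean level (log2 relative to the 75th percentile, horizontal axis). Lines are drawn for regions, RefSeq messenger RNAs and RefSeq noncoding RNAs. The regions lie lowest of the 3 classes in every bin, from -0.40 at or below -5 to -0.089 above 2.

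The largest decrease was that of chr8:13200727-13207714 on the forward strand, an interval of 6.99 kb. Its brightest probe had a processed signal of 414 on the WT array and 29.0 on the other, a level of -0.96 against -4.89. That is a difference of -3.92 ± 0.26, or 15.2-fold, and -2.21 with normexp. A second probe gave -3.44. The third, at -2.38 in WT and -6.82 on the other array, was read on the WT array only. All probes of this region thus placed it well within the readable range in WT and near background on the array labelled Mef2d KO.

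The next largest decrease rested on a single probe of its region. In chr2:31001736-31006911 on the forward strand, an interval of 5.18 kb, that probe had a signal of 911 against 73.4 (WT first), a level of 0.17 against -3.55. The difference was -3.72 ± 0.21, or 13.2-fold. The region's 3 other readable probes gave -0.29, -0.47 and -0.90, and its remaining 4 probes were not read on both arrays. On the reverse strand of the same interval, the brightest of 8 readable probes stood at 0.83 and 0.33, a difference of -0.50. Most of what was probed in this interval therefore differed by less than 2-fold.

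Several bright regions were lower by each of their readable probes. The brightest was chr15:51829797-51844247 on the reverse strand, with signals of 9005 (WT) and 4066 (labelled Mef2d KO), or levels of 3.48 and 2.24. Its brightest probe gave -1.23 ± 0.20 and a much dimmer probe gave -1.18. The forward strand of that interval stood at 1.62 and 1.29, a difference of -0.33, so the strands differed by unequal amounts.

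Shorter regions with 3 probes each gave close values. For chr2:129416848-129417413 on the reverse strand, 0.566 kb long, the levels were -0.31 and -1.61, and the 3 probes gave -1.30, -1.26 and -1.49. For chr12:109994730-109995062 on the reverse strand, 0.333 kb long, the levels were -1.70 and -3.25, and the 3 probes gave -1.55, -1.40 and -1.49. In both cases the probes lie within less than 1 kb and may share target sequence.

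Longer regions were also lower by every readable probe. In chr17:22335458-22466521 on the reverse strand, 131 kb long, the levels were -0.23 and -1.38, a difference of -1.15 ± 0.20. In chr3:127037711-127111912 on the reverse strand, 74.2 kb long, they were -1.61 and -2.83, a difference of -1.22 ± 0.21. In all, 12 of the 2203 regions with more than 1 readable probe were at least 2-fold lower by each of them, and 1 was higher. The share among other transcripts with several probes was not worked out.

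The dim members of that group were nearer to background. The region chr8:49853937-49874087 on the forward strand read -3.59 and -4.81, a difference of -1.22 ± 0.28. The values of chr4:8606650-8614031 on the reverse strand were -3.75 and -4.76, a difference of -1.01 ± 0.26. Differences of chr4:152297604-152298076 (reverse, -1.05) and chr10:61498439-61498933 (reverse, -1.09) were likewise close to 2-fold. The control at a WT level of -4.20 differed by -0.74, while the one at -2.84, nearer to the -2.31 of chr4:152297604-152298076 in WT, differed by -0.11.

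Other bright decreases came from 1 probe of several. In chr1:134867906-134885481 on the reverse strand, the brightest of 10 readable probes stood at 0.62 and -0.94, a difference of -1.56 ± 0.20. The other 9 probes gave between -0.64 and -0.096, and the forward strand gave -0.090. In chr9:56910620-56919495 on the forward strand, the brightest probe read -0.62 and -2.41, a difference of -1.80, while the other 4 gave between -0.96 and 0.76. The value of such a region depends on which probe stands for it.

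In other bright decreases the probes of a region also disagreed. In chr3:117935228-118089771 on the forward strand, the brightest probe read -0.66 and -2.31, a difference of -1.65, and the others gave -0.37 and -0.067. In chr14:33975934-33998694 on the reverse strand the brightest gave -1.53, from -1.29 to -2.81, and the only other readable probe gave 0.70. In chr14:28231577-28242027 on the forward strand the brightest gave -1.21, from 1.0 to -0.20. Of its other readable probes, all dim, 2 were also past 2-fold lower, at -1.65 and -1.48, and the dimmest gave 1.09. The region chr8:80581177-80621652 on the forward strand, at -0.83 and -2.58, had 1 readable probe, with a difference of -1.75 ± 0.21.

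**Figure D3:**
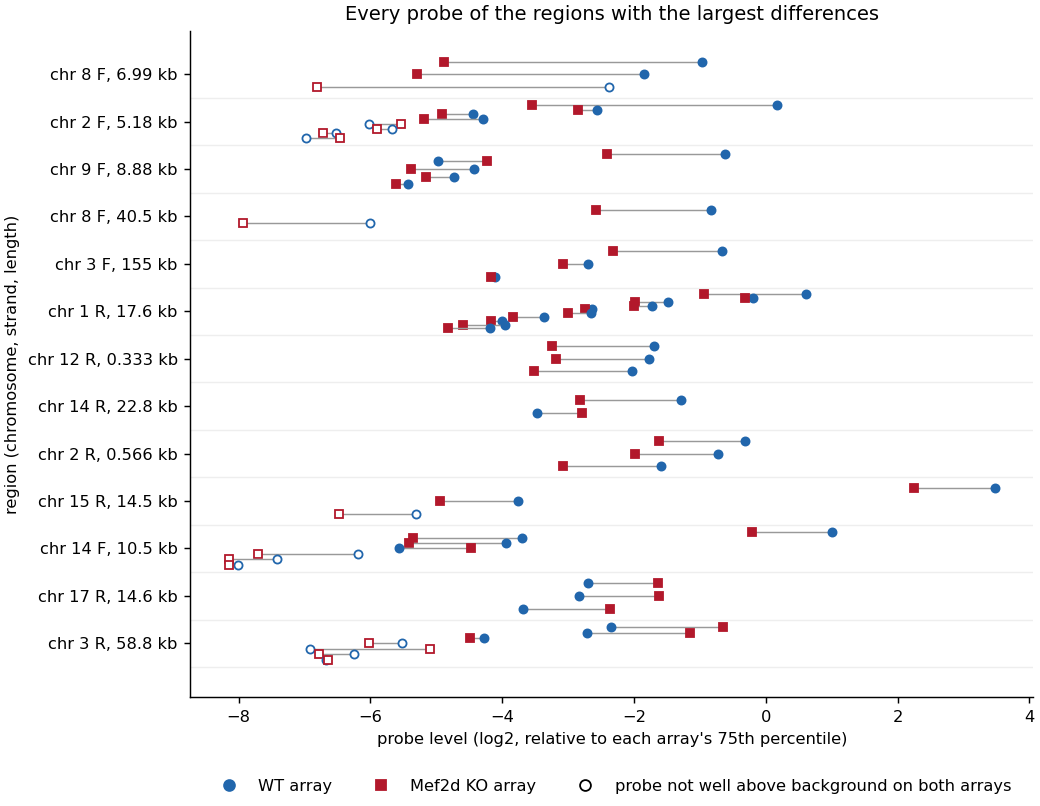
Level of each probe (log2 relative to each array's 75th percentile, horizontal axis) in 13 named regions (vertical axis, labelled by chromosome, strand and length). Circles are the WT array and squares the array labelled Mef2d KO, joined by a line for each probe. Filled points are probes well above background on both arrays and open points are the others. In the region of 6.99 kb on chromosome 8 every probe lies far lower on the array labelled Mef2d KO. In that of 5.18 kb on chromosome 2 a single probe has a far longer line than the rest. It stood at 0.17 in WT and -3.55 on the other array.

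Increases were fewer and smaller. The 10 regions at least 2-fold higher had a median level of -3.64 in WT and -2.46 on the array labelled Mef2d KO. With quantile normalization and with cyclic loess all 10 also passed 2-fold, and with normexp 1 did. That one was named by rule, and the other 9 are named here after their values were seen.

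The largest increase was in chr3:86827945-86886695 on the reverse strand, 58.8 kb long. Its signal was 158 in WT and 546 on the other array, or levels of -2.35 and -0.65. The difference was 1.70 ± 0.21, or 3.24-fold, and 1.39 with normexp. A second probe gave 1.57 and the third, a dimmer one, -0.22. The forward strand of the interval, near background at -5.13 and -5.30, gave -0.16.

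Chromosome 17 held 4 of the 10 higher regions among its 221. In chr17:15100982-15115630 on the reverse strand the levels were -2.70 and -1.64, and all 3 probes were higher, by 1.06, 1.22 and 1.31. The nearby chr17:15132576-15147002 on the same strand had 1 probe at -3.44 and -2.22, a difference of 1.22. A longer region between them that overlaps both, chr17:15111725-15139800 on the reverse strand, was not past 2-fold: its 5 probes gave between -0.013 and 0.64. The regions at either end of that interval were thus higher, while none of its own probes was past 2-fold.

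The other higher regions of chromosome 17 lay elsewhere. The forward region chr17:84397891-84412748 read -3.86 and -2.69, a difference of 1.17 ± 0.23, by 1 readable probe of 3. Within 50 kb on the same strand, chr17:84355587-84356863 was brighter, at -0.89 and 0.029, and its readable probes gave 0.92 and 0.83, just under 2-fold. The dim forward region chr17:15357376-15385701 read -5.14 and -3.97, a difference of 1.18 ± 0.32, while its second readable probe gave -0.013.

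On chromosome 10 a bright forward region was higher by each of its probes, whose positions within it were not used. In chr10:69669025-69686275 the levels were -0.91 and 0.17, a difference of 1.08 ± 0.20, and all 5 probes lay between 0.77 and 1.1. A region inside it, chr10:69679644-69682458, read -1.0 and -0.094, and its 3 probes gave between 0.91 and 0.99. Another forward region, chr10:69667411-69678033, overlaps chr10:69669025-69686275 from its start to position 69678033. That other region gave -0.89 by its only readable probe of 3. The reverse strand of chr10:69669025-69686275 gave -0.12.

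The remaining increases were dim. The region chr10:66349796-66378261 on the reverse strand read -5.48 and -3.90, a difference of 1.58 ± 0.32 that was 0.56 with normexp. For chr11:119794849-119803349 on the reverse strand the levels were -5.05 and -4.05, a difference of 1.0 ± 0.30, with 3 other readable probes between -0.64 and 0.20. The forward region chr13:67932042-67944229 was steadier, at -3.84 and -2.81, with probes at 1.02, 1.33 and 0.90. The last, chr8:124397412-124398022 on the reverse strand, read -3.42 and -2.23, a difference of 1.19 by 1 probe.

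How well the probes of a region matched each other could be seen in the 2203 regions with more than 1 readable probe. The brightest and the second brightest probe differed by a median of 0.18 in either direction, and over regions their differences correlated with r = 0.39. This correlation is a description over regions of the same 2 arrays and shares their slope with level. Of 56 lower regions with a second readable probe, 46 had a second probe that was also negative and 14 had one past 2-fold, and the second probes' median was -0.59. Of 6 such higher regions, the second probe was positive in 4 and past 2-fold in 4, with a median of 1.16. A 2-fold difference of a region was thus repeated at 2-fold by its next probe in a minority of the lower regions. How often this happens among other transcripts was not worked out.

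**Figure D4:**
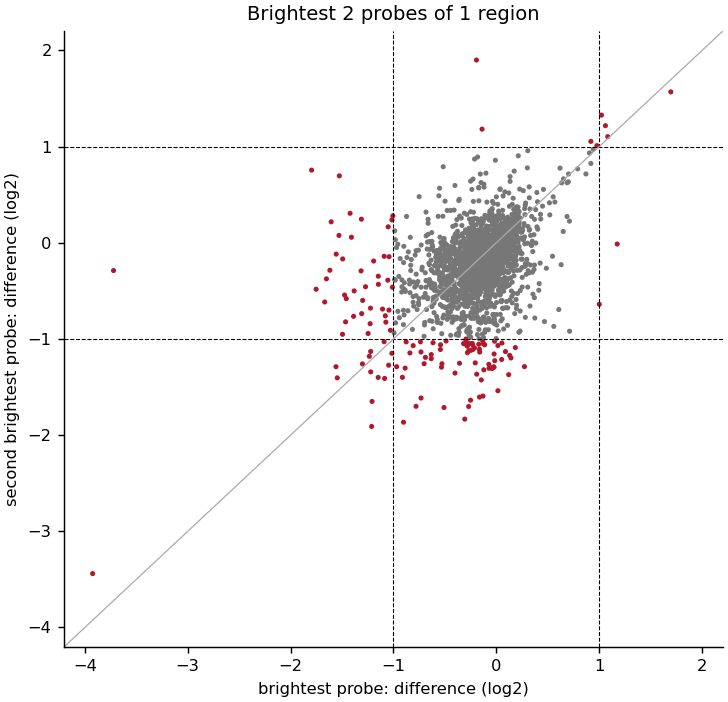
Difference of the second brightest readable probe (log2, vertical axis) against that of the brightest (log2, horizontal axis) for the 2203 regions with more than 1 readable probe. Points past 2-fold by the brightest probe spread widely in height, and 14 of 56 lower and 4 of 6 higher ones are past 2-fold by the second probe as well.

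Taking the brightest readable probe left aside 11 regions in which a brighter probe was read on the WT array only. The clearest was chr13:98221098-98480773 on the reverse strand, with such a probe at -3.34 in WT and -7.02 on the other array.

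Opposite strands of an interval gave different answers. Of the 1042 intervals probed on both strands, 742 had both strands read on both arrays, 252 had 1 and 48 had none. In these 742 the strands were often far apart in level, by a median of 1.91 and by more than 3 in 236 intervals. The forward strand was the brighter in 369. The median difference was -0.14 on the brighter and -0.23 on the dimmer strand.

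In 59 of the 742 intervals a strand was past 2-fold, 54 with a lower and 5 with a higher strand, and in 0 were both strands past 2-fold the same way. The strand past 2-fold was the dimmer one in 42 and the brighter one in 17. Over the 742 intervals the strands' differences correlated with r = 0.065, again as a description over regions of 1 pair of arrays.

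In 2 intervals the strands' brightest probes stood apart in opposite directions with a product of the differences of at least 1 in size. In neither was the reverse strand past 2-fold. Other intervals with a strand past 2-fold also had opposite signs but a smaller product, such as chr11:119794849-119803349 at -0.53 (forward) and 1.0 (reverse). In chr8:124355710-124401160 the forward strand read -2.84 and -4.46, a difference of -1.62 ± 0.24, and the reverse strand -2.48 and -1.57, a difference of 0.92 ± 0.21. The forward value rested on 1 of 5 readable probes, since the other 4 gave between -0.85 and -0.18. Its reverse probes gave between -0.45 and 1.05, and the small higher region chr8:124397412-124398022 described above lies inside the interval on that strand. In chr13:98571741-98603323 the forward strand read -3.65 and -5.03, a difference of -1.38 ± 0.30, and the reverse strand -3.31 and -2.37, a difference of 0.94 ± 0.22. Here 3 reverse probes agreed at 0.94, 0.97 and 0.98, whereas the second forward probe gave -0.50. With normexp the forward values shrank to -0.65 and -0.35 and the reverse values to 0.74 and 0.69.

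**Figure D5:**
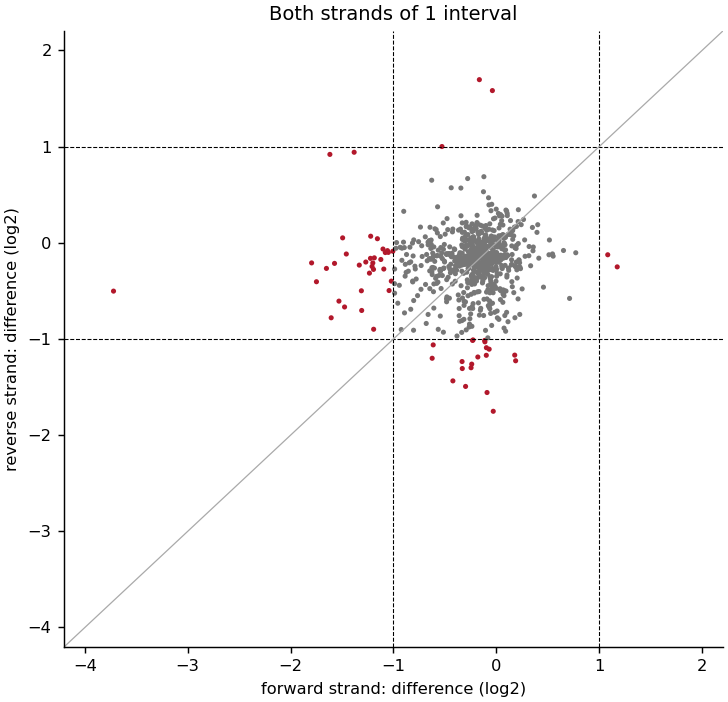
Difference of the reverse strand (log2, vertical axis) against that of the forward strand (log2, horizontal axis) for the 742 intervals with both strands read on both arrays. No point lies past 2-fold in the same direction on both axes, while some of the 59 intervals with a strand past 2-fold come near it, as the one on chromosome 15 at -1.19 (forward) and -0.90 (reverse) does.

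Neighbouring regions on a strand were compared within 50 kb. There were 1834 such pairs, 982 of them overlapping and 852 apart, and their differences correlated with r = 0.20 and 0.17. Of the 122 pairs with a region past 2-fold, 4 had both past it the same way, 3 lower and 1 higher. Of the 10 higher regions, 5 had a neighbour on the same strand with a difference above 0.9, a cut just below 2-fold. Of these, chr17:15100982-15115630 and chr17:15132576-15147002 are each other's neighbour, and some of the others overlap theirs. The same count was not made for other regions or transcripts, so it is only a description.

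The lower pairs were short. On chromosome 12, chr12:109994730-109995062 lies less than 1 kb from chr12:109995552-109996185 on the reverse strand. The latter read -4.07 and -5.63, a difference of -1.56 ± 0.34 that was -0.27 with normexp. Regions on either side on that strand were not past 2-fold, with -0.23 for chr12:109993800-109994116 and -0.54 for chr12:110002978-110003360. The 3 probes of the latter ranged from -1.11 to -0.017, so 1 of them was past 2-fold.

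On chromosome 17, chr17:36131460-36136694 on the forward strand read -1.18 and -2.39, a difference of -1.21 ± 0.21, and its dimmer probes gave -1.91 and -1.79. The overlapping chr17:36136010-36136696 read -2.55 and -4.09, a difference of -1.54 by 1 probe. A region that spans both, chr17:36130717-36137617, gave -0.11 by its 1 probe on the same strand, so different probes of the same few kb disagreed. The third lower pair is not reported here.

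By chromosome the regions' medians were close. The median difference ran from -0.21 to -0.12 over the 19 autosomes. The share of regions at least 2-fold lower ran from 1.27% on chromosome 19 (1 of 79) to 6.04% on chromosome 12 (11 of 182). Chromosome 3, which carries Mef2d, had a median of -0.21, with 9 lower and 1 higher of 189 regions.

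Medians were also close between strands, lengths and numbers of probes. The median difference was -0.17 on the forward and -0.18 on the reverse strand. Over quartiles of length it lay between -0.18 and -0.17, and it was -0.16 for regions with 1 probe and -0.15 for those with 6 to 10. The share at least 2-fold lower lay between 2.78% and 4.17% over the quartiles of length.

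Regions read on 1 array only allow a bound, the bright array's level against the lowest level that counted as readable on the other, or the dim probe's own where that was higher. Of the 403 regions read only on the WT array, 92 were at least 2-fold lower by this bound, or 22.8%, beside 19.3% of other transcripts. Of the 32 read only on the array labelled Mef2d KO, 3 were at least 2-fold higher, or 9.38%, beside 3.29%. With normexp 1 and 0 of them passed.

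The largest such bound was that of chr8:130666467-130821034 on the reverse strand. Its single probe stood at -2.43 in WT and was not well above background on the other array, at least 10.9-fold lower by this bound. Its difference with normexp was smaller, at -1.89, so the bounds hold only for the main setting. Next came chr12:76765238-76765739 on the reverse strand, at least 5.16-fold lower by 1 of 3 probes, and chr12:109274248-109274547 on the forward strand, at least 4.64-fold lower with 2 of 3 probes read in WT. The regions chr15:97674015-97674423 (reverse) and chr1:64696508-64699504 (forward) followed at 3.43-fold and 3.41-fold. With normexp the differences of these later regions were, in the same order, -0.73, -0.95, -0.41 and -0.36, all under 2-fold.

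In the other direction, chr4:146890596-146891297 on the forward strand was not well above background in WT and stood at -3.87 on the array labelled Mef2d KO, at least 3.72-fold higher, where all 3 of its probes were read. The bounds of chr6:136440100-136450050 (reverse) and chr9:48889364-48910736 (forward) were 2.08-fold and 2.04-fold. Those of chr12:117623500-117643575 (forward) and chr17:33995525-34028025 (reverse) were 1.94-fold and 1.84-fold. All of these increases were at dim levels. With normexp their differences were, in the same order, 0.73, 0.41, 0.41, 0.33 and 0.39, all under 2-fold.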

How the data were processed

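RNA of 1 WT retina sample and 1 labelled Mef2d KO at postnatal day 14 was read on 1 one-colour array each. Per the file headers, the authors ran Agilent Feature Extraction 10.10.1.1, whose processed signal is an intensity after background subtraction. The deposited series table holds the same intensity values times 1 constant per array (1.88 and 1.76), with medians of 155.1 and 136.6; it is linear and uncentred, and the sources used here do not say how the constants were found.

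Levels were log2 of the processed signal minus the array's 75th percentile over 59305 spots (807 in WT and 858 on the other array). Control and outlier spots were left out and spots of a probe averaged. Each region was represented by the probe with the highest mean level among those read on both arrays. Other transcripts were collapsed by name in the same way, with those matched to X or Y left out (68.1% of their probes matched a gene of the GRCm38.p6 annotation by accession). Regions on chromosome 18 were counted and not named.

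The members, lists and rules were chosen with earlier results of these data known. Regions named were the 15 largest decreases and increases past 2-fold also with quantile normalization and with normexp (12 and 1 passed, 1 of them not named), their opposite strands, the 5 brightest, the 5 largest bounds each way, regions past 2-fold by every probe, strands past 2-fold, and neighbours within 50 kb. The regions around those neighbours, the 9 further increases, the probe read in WT only and the intervals with opposed strands were picked once their values were known.

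Precision is limited by the number of arrays. The SD of the difference between replicate spots of 432 probes had a median of 0.082. The steps were tested on simulated data. Alternatives were median scaling, the percentile over readable probes, quantile normalization, cyclic loess and normexp (offset 50, on median signals, then quantile normalization). Others were the series table, the mean over probes, and other filters. Normalization used limma 3.58.1 (R 4.3.3). Tables and plots used pandas 2.3.3, numpy 2.4.6 and matplotlib 3.10.9 (Python 3.11.15).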

Additional observations from a re-analysis of the deposited data

How the results depend on the processing

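With 1 array per group no replicate could be left out, and no paired analysis was possible because each group has 1 array. The 124 lower and 10 higher regions became 69 and 17 with each array scaled to its median, 41 and 18 after quantile normalization, 40 and 15 after loess, 12 and 1 with normexp, 525 and 26 with no filter on dim probes, and 20 and 5 above a mean level of -3 (fewer regions counted). They were 132 and 9 with the percentile over readable probes, 124 and 10 in the series table and 95 and 9 with the mean over probes. The regions' median difference of -0.17 became 0.0050 with median scaling and -0.051 after quantile normalization, then -0.038 for loess and -0.032 for normexp. The 92 lower and 3 higher bounds became 54 and 5, 14 and 16, 21 and 10, and 1 and 0 in those 4 settings, in the same order. The cause of these changes was not tested. Of the 124 lower regions, 40 also passed 2-fold with quantile normalization, 39 with loess and 12 with normexp. None of the 32 named regions past 2-fold changed direction under these settings. Of them 28 still passed with median scaling and with quantile normalization, 27 with loess, 22 with the mean over probes and 12 with normexp. The naming rule for the largest changes itself asked for 2-fold with quantile normalization and with normexp. The counts of named regions in these settings are therefore partly fixed by the choice and do not measure stability. Of all 10 higher regions, 10 passed with quantile normalization, 10 with loess and 1 with normexp. Low signal over background limits dim regions, whose median scanner error was 0.26 at or below a level of -3.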
